A study of Mus musculus with 21 samples.

Results

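The 50 genes described here encode the integrins of the myoblast surface and the proteins of the focal adhesion, the plaque that ties a bound integrin to the actin cytoskeleton. They were taken from a list of names by a rule that used no measured value, although earlier results of these data were known when the list was drawn up. For each gene, the peaks within 1 kb of its span in the mouse build GRCm38 were collected from every PSME3 and H3K4me3 peak list. All 50 names were found in the table of 49997 genes, 21900 of them protein-coding, that served as background.

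The data come from CUT&RUN, in which an antibody held on its target in permeabilized cells directs a nuclease to cut and release the DNA around it. The antibodies recognized PSME3, a nuclear activator of the proteasome, and H3K4me3, a histone mark of active promoters. The study asked where PSME3 sits on chromatin in C2C12 cells, a mouse myoblast line, and whether it stays there as they differentiate. It also followed cell adhesion and migration, which is the reason to look at adhesion genes here.

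Cycling cells were grown in 20% FBS and frozen unfixed in 10% DMSO, and there were 3 replicates with each antibody. Day 2 cells had grown to confluency and then spent 48 h in 2% horse serum. They were prepared in 4 ways, fresh or frozen and native or crosslinked for 5 min with 0.1% formaldehyde, with 1 library of each antibody per preparation. Day 2 therefore has no replicates, and only the frozen native preparation was handled as the cycling cells were. All samples carry the unmodified C2C12 background, with no knockdown.

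The authors called peaks in each library and also in the 3 cycling replicates together, here called the pooled list. Each peak has a fold enrichment over the background that the peak caller estimated. No read totals come with the lists and the depth is unknown. Sizes of fold enrichment can therefore be compared inside a single list but not across lists, also where values of several lists are printed together. H3K4me3 replicate 2 stood apart, with 40999 peaks of a median width of 662 bp against 18077 and 19365 peaks of 1781 and 1784 bp in replicates 1 and 3. PSME3 lists held 1200, 776 and 3070 peaks in the cycling replicates and 18 to 186 at day 2. All 5 myoblast markers had an H3K4me3 peak in every list. Of 5 differentiated muscle markers, 2 had a peak in the pooled cycling list and 5 in each day 2 list. In the pooled list 35.9% of all genes and 60.9% of protein-coding genes had one, and at day 2 29.9% to 32.6% of all genes did.

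Integrins are heterodimers of an alpha and a beta subunit that bind the extracellular matrix outside the cell. Talins and kindlins bind the beta tail and switch the receptor on, and vinculin, zyxin, tensins, alpha-actinins and filamins connect the complex to actin. Focal adhesion kinase, Src and the scaffold paxillin signal from the plaque into the cell. Myoblasts use this machinery to migrate, to align and to anchor the myotubes that they form.

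Promoters with a pooled PSME3 peak over the start are shown first. A pooled PSME3 peak lay over a listed gene start, and recurred in at least 2 replicate lists, at Lims1, Vcl and Zyx. Lims1 encodes PINCH1, an adaptor of integrin-linked kinase, and Vcl encodes vinculin. Zyx encodes zyxin, and its 250 bases before the start lie inside the annotated gene span and are not printed. Nudc, which encodes a dynein-associated co-chaperone, was added after its values were seen. Its PSME3 peak also covered the start, as did pooled peaks at Itga3, Itga5, Actn1, Myadm and Rhoa, which were not added. The Nudc peak was in no replicate list and was lost at a q-value of at most 0.01. It covered 30 of the 250 bases before the Nudc start. The bases below precede the start, read 5′ to 3′ on the gene's strand, come from RefSeq GRCm38.p6 and are cut where the annotated gene span begins. Capitals mark matches, on either strand, to 6 motifs. These were the CCAAT box, the GC box GGGCGG of Sp1, the TATA box TATAAA, the AP-1 site TGANTCA, the TEAD site GGAATG and the CArG box bound by SRF.
Lims1, chr10:58323297-58323341, plus strand: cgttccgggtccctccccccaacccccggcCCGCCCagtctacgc
Vcl, chr14:20929148-20929382, plus strand: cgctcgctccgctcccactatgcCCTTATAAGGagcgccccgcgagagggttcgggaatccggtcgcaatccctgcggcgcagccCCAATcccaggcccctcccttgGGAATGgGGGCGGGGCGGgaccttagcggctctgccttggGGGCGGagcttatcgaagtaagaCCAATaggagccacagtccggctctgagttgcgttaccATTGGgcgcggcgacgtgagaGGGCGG
Nudc, chr4:133546028-133546277, minus strand: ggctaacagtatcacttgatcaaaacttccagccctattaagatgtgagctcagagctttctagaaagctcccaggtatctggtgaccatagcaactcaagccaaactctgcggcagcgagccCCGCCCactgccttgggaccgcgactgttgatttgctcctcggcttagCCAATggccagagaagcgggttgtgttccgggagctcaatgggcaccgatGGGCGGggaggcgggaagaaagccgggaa

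In the whole 250 bases before the start, Lims1 held 3 GC boxes, Vcl 4 GC boxes with 1 overlapping pair, 3 CCAAT matches, 1 TEAD site and 1 CArG box, Zyx 2 GC boxes and 1 AP-1 site, and Nudc 2 GC boxes and 1 CCAAT match. The windows were rich in G and C, with 70.8% at Lims1, 67.2% at Vcl, 67.6% at Zyx and 56.4% at Nudc, against a median of 52.4% over 32851 promoters. Starts were listed for 38 of the 50 genes, in 49 windows, whose median was 64.0%. A GC box was in 59.2% of the 49 windows and in 32.7% of all promoters, and CCAAT in 18.4% and 33.8%. The CArG box was in 4 of the 49 windows, those of Vcl, Myadm, Fermt2 and Itgb6, which is 8.16% against 1.47% of all promoters. The other motifs were found in 4.08% of the windows for TATAAA, 4.08% for AP-1 and 12.2% for TEAD, against 12.4%, 6.75% and 12.6% of all promoters. Itga6, Itga7, Itgb3, Itgb4, Itgb1bp2, Tln2, Pxn, Ptk2, Parva, Lims2, Fn1 and Rac1 had no listed start.

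In cycling cells, 24 of the 50 genes had a PSME3 peak in the pooled list, which is 48.0% (95% exact interval 33.7 to 62.6) against 11.8% of all genes and 21.9% of protein-coding genes. The actin linkers had 6 of 9 members with a peak, the beta integrins 4 of 7, the ILK-PINCH-parvin complex 3 of 5 and the kinases and scaffolds 3 of 4. The alpha integrins had 3 of 13, the talins and kindlins 2 of 4, and Myadm and Nudc both had one. Fibronectin and the beta tail binding proteins had none.

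Most adhesion genes carried H3K4me3, and so the share was also set against genes with the mark. Of the 46 members with a pooled H3K4me3 peak, 24 had a PSME3 peak, or 52.2% (36.9 to 67.1) against 35.6% of such protein-coding genes. The members with a pooled H3K4me3 peak were also long, with a median span of 55.2 kb against 24.1 kb for protein-coding genes with one, and PSME3 peaks were found at more of the longer genes. At spans of 10 to 30 kb the share was 7 of 13 members against 34.4%, at 30 to 100 kb 9 of 20 against 38.3%, and at 100 kb or more 8 of 12 against 41.8%. The 1 marked member under 10 kb had none, against 30.8%. Around listed starts alone, 12 of 38 members had a PSME3 peak within 1 kb, or 31.6% (17.5 to 48.7) against 13.6% of genes with a listed start, and 9 of 38 had one over the start itself against 8.3%. These intervals cover counting error only, and no test of the difference was made. Unlike the shares among marked genes, the counts around starts were not matched for H3K4me3. A pooled H3K4me3 peak lay within 1 kb of a listed start at 89.5% of the 38 members, against 43.7% of genes with a listed start.

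**Figure D1:**
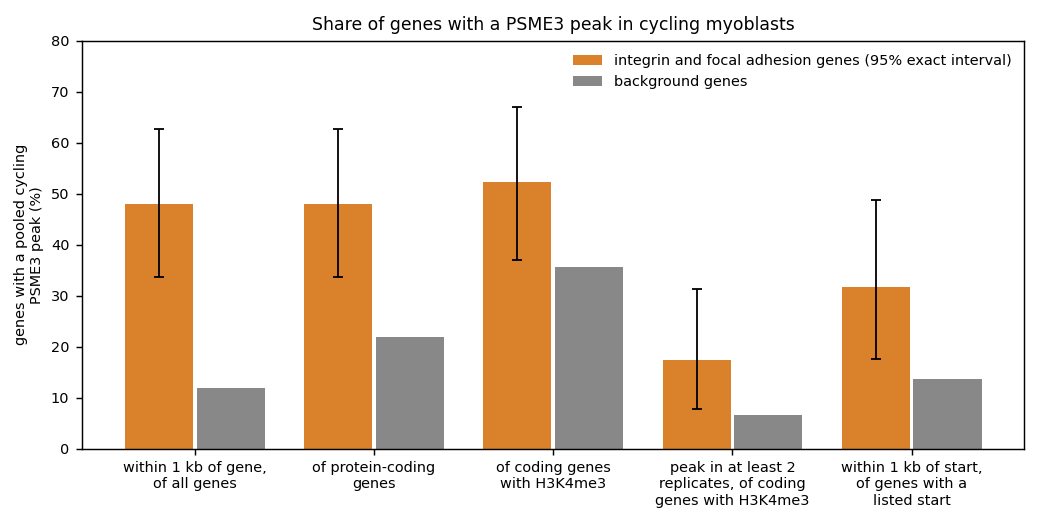
Bars give the percent of genes with a pooled cycling PSME3 peak, for the integrin and focal adhesion genes (orange, with 95% exact intervals) and for the background genes of the same definition (grey). The orange bar is higher in each of the 5 definitions, and the gap is narrower against coding genes that carry H3K4me3 (52.2% and 35.6%) than against all genes (48.0% and 11.8%). The bars around listed starts are not matched for H3K4me3.

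The replicates differed in how many adhesion genes they listed. PSME3 peaks were found at 7, 4 and 20 of the 50 genes in replicates 1, 2 and 3, against 2.5%, 1.93% and 7.08% of all genes. H3K4me3 peaks were found at 46, 46 and 45, against 33.5%, 38.7% and 34.0% of all genes. Of the 21900 protein-coding genes, 12876, 13925 and 12944 had an H3K4me3 peak in these replicates. The means were 10.3 ± 8.5 genes (SD, n = 3) for PSME3 and 45.7 ± 0.577 (SD, n = 3) for H3K4me3, and the ranges did not overlap. The difference of 35.3 genes had a two-sided exact permutation p of 0.1, the smallest that 3 against 3 libraries can give, and with the replicate number as a block the exact p was 0.25, again the smallest possible. The H3K4me3 lists held 18077 to 40999 peaks and the PSME3 lists 776 to 3070. The shares of all genes differed likewise, so the difference is not particular to adhesion genes.

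Because replicate 3 supplied most of the replicate peaks, recurrence was followed gene by gene. A pooled peak that overlapped a peak in at least 2 replicate lists was found at 8 genes, which is 16.0% of the 50 against 2.12% of all genes, and 17.4% (7.82 to 31.4) against 6.5% among coding genes with H3K4me3. They were Lims1, Src, Itga2b, Tln1, Tns1, Vcl, Zyx and Tns3, the last with only an edge overlap in replicate 1. A further 9 genes had pooled peaks in 1 replicate list at most, with at least 1 such peak, and 7 had pooled peaks in none. Itgb1 and Bcar1 in replicate 1, and Lims2 and Vasp in replicate 3, had a peak in a replicate list only. The remaining 22 genes had no PSME3 peak in any list.

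**Figure D2:**
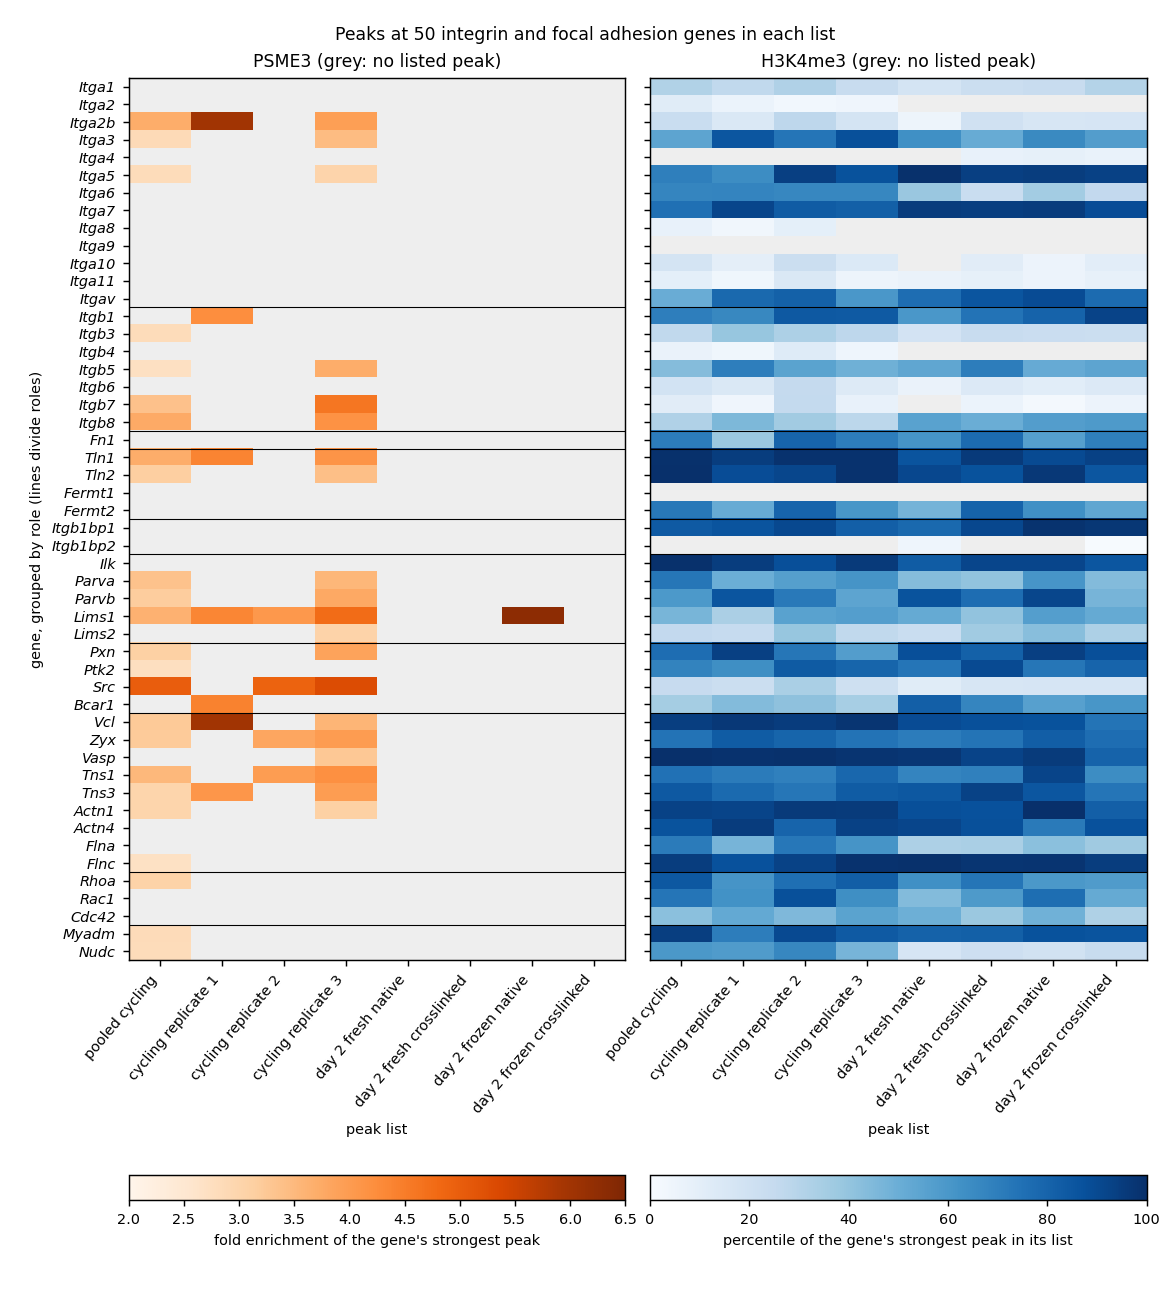
Each row is 1 of the 50 genes, grouped by role, and each column is a peak list. On the left, colour gives the fold enrichment of the strongest PSME3 peak, which cannot be compared across columns. On the right it gives the percentile of the strongest H3K4me3 peak among genes with a peak in that list. Grey marks no listed peak. PSME3 is seen at 24 genes in the pooled column and at 1, Lims1, at day 2, whereas H3K4me3 fills most rows in all lists.

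Lims1 was the one gene with a PSME3 peak in all 3 replicates. Its fold enrichment was 4.34, 4.05 and 4.74 in replicates 1, 2 and 3 and 3.63 in the pooled list, where the peak spanned chr10:58322928-58323855. Among the PSME3 peaks of each list, it stood at percentiles 28.8, 48.3 and 94.6 in replicates 1, 2 and 3 and 91.4 in the pooled list. The pooled peak covered all 250 bases before the start and sat on the gene's strongest H3K4me3 peak, with an H3K4me3 fold enrichment of 13.0. Lims1 was also the only member with a PSME3 peak at day 2, in the frozen native list, at chr10:58323084-58323393 with a fold enrichment of 6.29 (percentile 80.4 of that list). That is 1 of 50 genes (2.0%, 0.0506 to 10.6) against 0.494% of all genes. The fresh native, fresh crosslinked and frozen crosslinked lists had none at the 50 genes, where the background shares were 0.03%, 0.022% and 0.192%, and a count of 0 of 50 leaves an upper bound of 7.11%. At day 2 the libraries listed few PSME3 peaks anywhere, and fewer sites and fewer reads cannot be told apart without the depth.

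Src, the tyrosine kinase that acts with focal adhesion kinase, had the highest fold enrichment of the 41 pooled peaks, 5.0. This peak, at chr2:157447648-157448002, lay inside the gene, 23.5 kb from the listed start. Its fold enrichment was 4.92 in replicate 2 and 5.30 in replicate 3, and replicate 1 had none. It did not sit on the promoter peak of H3K4me3, with a fold enrichment of 7.5, but on a lower one of 2.76, the third of 4 in the gene. No other PSME3 peak was listed at Src.

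Among the alpha integrins, Itga2b, the subunit that pairs with beta 3 on platelets, had 2 pooled peaks. The one at chr11:102466212-102467323, 3.12 kb from the listed start, had a fold enrichment of 3.70 and recurred in replicates 1 and 3, where the gene's strongest peak reached 5.99 and 3.94. The other, of 3.51, recurred in no replicate list, although it sat on the gene's strongest H3K4me3 peak. Itga3 and Itga5, the laminin and fibronectin receptor subunits, had peaks over their starts of 2.85 and 2.82. The Itga3 peak was found in replicate 3 and the Itga5 start peak in none.

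Talin 1, which binds the beta tail and activates integrins, had a peak of 3.70 within 1 kb of its start, at chr4:43561876-43562562, found in replicates 1 and 3 at 4.38 and 4.13. The neighbouring gene Creb3 lies within 1 kb of this peak, so it cannot be assigned to Tln1 alone. A peak 2.50 kb into Tln1, of 3.16, was in no replicate list, and both sat on an H3K4me3 peak of 26.05. Tln2, the muscle-rich paralogue, had 4 pooled peaks inside the gene, 1 of them in replicate 3. One of these, at chr9:67574794-67575076, was the only one of the 41 peaks that overlapped no pooled H3K4me3 peak.

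Vinculin, which reinforces the bond between talin and actin, had a single pooled peak over its start, at chr14:20928921-20930101. Its fold enrichment was 3.22 in the pooled list, 6.0 in replicate 1 and 3.57 in replicate 3, with none in replicate 2. The Zyx peak at chr6:42349197-42349958 had 3.20 in the pooled list, 3.82 in replicate 2 and 4.00 in replicate 3. At Vcl and Zyx the PSME3 peak lay inside the gene's strongest H3K4me3 peak, which had fold enrichments of 21.0 and 16.8. The peaks at Vcl and Zyx were thus at promoters, with a different pair of replicates behind each.

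The tensins, which link integrin tails to actin in mature fibrillar adhesions, had pooled peaks far from their listed starts. Tns1 had 5 pooled peaks, all inside the gene and 87.7 kb or more from the listed start. The recurrent one, at chr1:73998228-73998874, had 3.51 in the pooled list and was found in replicates 2 and 3, where the gene's strongest peak had 3.97 and 4.2. Tns3 had 2 pooled peaks, 196 and 221 kb from the listed start. Of these, the farther one at chr11:8443726-8444062, of 2.97, overlapped peaks of 4.08 in replicate 1 and 3.84 in replicate 3. The replicate 1 peak, at chr11:8443569-8443752, met the pooled one only at an edge. It stood at percentile 3.79 of its list with a −log10 q of 1.04, and overlapped no H3K4me3 peak of replicate 1. The nearer pooled peak overlapped the strongest Tns3 peak of replicate 3, of 3.98. Replicate 3 also listed a peak of 3.43 over the Tns3 start, at chr11:8664255-8664561, which the pooled list did not hold.

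Over all members, there were 41 pooled PSME3 peaks, 11 genes had 2 or more, and fold enrichment ran from 2.48 to 5.0. The median of 2.94 was near that of all pooled PSME3 peaks, 2.92, and the median width of 355 bp was below the 431 bp of all. Of the 41 peaks, 21 were in no replicate list, 12 in 1, 7 in 2 and 1 in 3. The share in at least 2 lists was 19.5%, against 14.4% of all pooled PSME3 peaks, and the share in none was 51.2% against 45.8%.

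H3K4me3 overlapped 40 of the 41 peaks by at least 1 bp, or 97.6% (87.1 to 99.9), against 93.6% of all 5812 pooled PSME3 peaks. Where the H3K4me3 list of the same replicate was used, 7 of 8, 4 of 4 and 24 of 24 peaks overlapped. The mark beneath the peaks was of 2 kinds. In 20 cases the PSME3 peak sat on the gene's strongest H3K4me3 peak, with a median H3K4me3 fold enrichment of 16.9, and in 20 cases on another, with a median of 2.72. Of the 31 peaks at genes with a listed start, 13 lay over it or within 1 kb, or 41.9%, and 18 lay inside the gene farther away. Of all 4168 pooled PSME3 peaks at genes with a listed start, 73.1% lay within 1 kb of one, and the members were the longer genes, as given above.

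**Figure D3:**
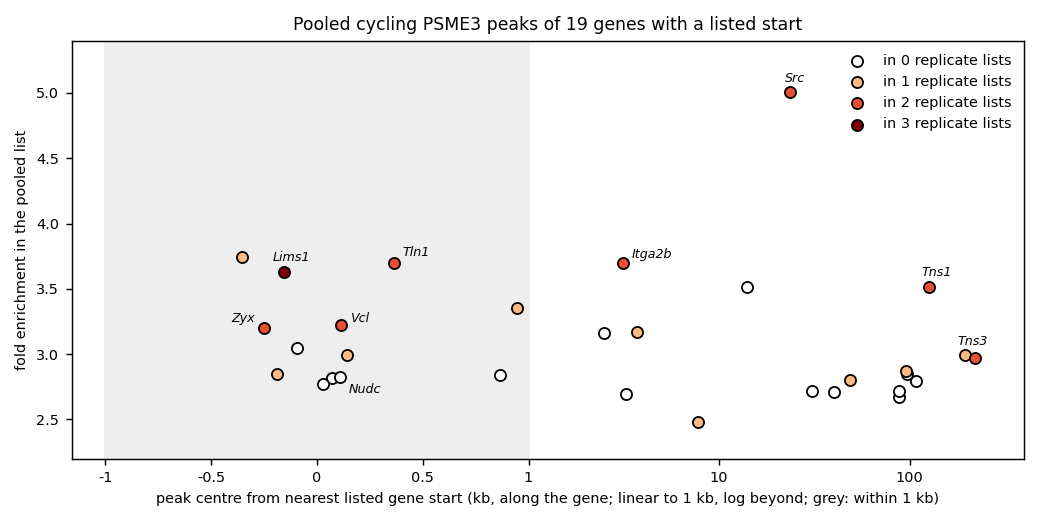
Each point is a pooled cycling PSME3 peak at 1 of the 19 genes with a listed start and such a peak, placed by the distance of its centre from the nearest start (kb, linear to 1 kb and logarithmic beyond) and by its fold enrichment. Darker points recurred in more replicate lists. The peaks split into 13 within 1 kb of a start and 18 inside genes, and recurrent peaks are found in both sets, with Src the highest at 5.0.

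Several genes tied to the study's account of adhesion had weaker PSME3 peaks. Itgb3, the beta subunit of a vitronectin receptor, had 2 pooled peaks inside the gene, 5.92 and 17.1 kb from its lower-coordinate end, with fold enrichments of 2.82 and 2.81. Both were in no replicate list and sat on minor H3K4me3 peaks of 2.68 and 2.48, not on the main one of 8.31. Nudc had 1 peak over its start, of 2.82, and Myadm, a membrane protein that regulates Rac1, had 2 of 2.84 and 2.77, and these too were in no replicate list. Flna, which encodes filamin A, and Rac1 itself had none. Requiring a q-value of at most 0.01 left 17 of the 24 genes. Pooled peaks that overlapped any replicate list were also found at 17, and those that overlapped one of replicates 1 and 2 at 8.

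Among other genes with PSME3, Itgb8 had a peak of 3.74 within 1 kb of its start and Itgb7 one of 3.36, both in replicate 3 alone. Parva and Parvb, the parvins of the ILK complex, reached 3.35 and 3.17, also with replicate 3. Rhoa, the GTPase of contraction, had the widest peak, 1418 bp over its start with a fold enrichment of 3.05, in no replicate list. That peak also lies within 1 kb of Tcta, and 1 of the Pxn peaks lies within 1 kb of Gm13836. Actn1, with 3 pooled peaks, reached 2.99, Itgb5 2.72, Ptk2, the focal adhesion kinase gene, 2.74 and Flnc 2.70.

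H3K4me3 gave a broader view, with a peak at 46 of the 50 genes in the pooled list (92.0%, 80.8 to 97.8), against 35.9% of all genes and 60.9% of protein-coding genes. A peak was present in all 7 single-library lists at 41 genes, in some at 7 and in none at 2, Itga9 and the kindlin gene Fermt1. To set libraries side by side, each gene's strongest peak was given a percentile among the genes with a peak in the same list, so that 100 is the strongest. The median percentile of the members with a peak was 63.0, 72.6 and 61.3 in the cycling replicates, against 53.5, 56.2 and 53.9 for protein-coding genes with a peak.

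The receptors and the plaque differed in the mark. Of the 20 integrin subunit genes, 17 to 18 had a peak in the cycling lists and 13 to 16 in the day 2 lists, and of the other 30 genes 28 in each cycling list and 28 to 29 at day 2. With genes without a peak at 0, the integrin medians were 20.3, 29.6 and 20.7 in cycling replicates 1, 2 and 3, against 19.2, 29.9 and 20.4 for protein-coding genes on the same count. Those of the other members were 66.9, 77.7 and 72.1. At day 2 the integrin medians ran from 11.9 to 20.9, the protein-coding ones from 10.3 to 17.2 and the other members from 67.0 to 76.6. The integrins were thus near the coding background on this count. Over the genes with a peak alone, the integrin medians were 32.7, 32.2 and 27.4 in cycling cells and 23.5 to 53.4 at day 2, the 53.4 in the fresh native list, where 13 had one. Those of the other genes were 70.4, 79.7 and 76.3 and then 69.5 to 79.0. The integrin medians lay below the others in all 7 lists on both counts. Among the activators, Tln1 was at 94.6, 98.8 and 98.8 in the cycling replicates and Tln2 at 88.8, 91.2 and 98.8. The kindlin gene Fermt2 was lower, at 51.0, 79.9 and 60.5. In cycling cells the actin linkers, all with a peak, had median percentiles of 86.8 ± 6.61 (SD, n = 3), and the kinases and scaffolds 52.2 ± 5.73 (SD, n = 3). At day 2 these roles were closer, with 76.4 to 88.1 for the actin linkers and 64.4 to 77.5 for the kinases and scaffolds. These splits were described after the values were seen, and members of a list are not replicates.

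**Figure D4:**
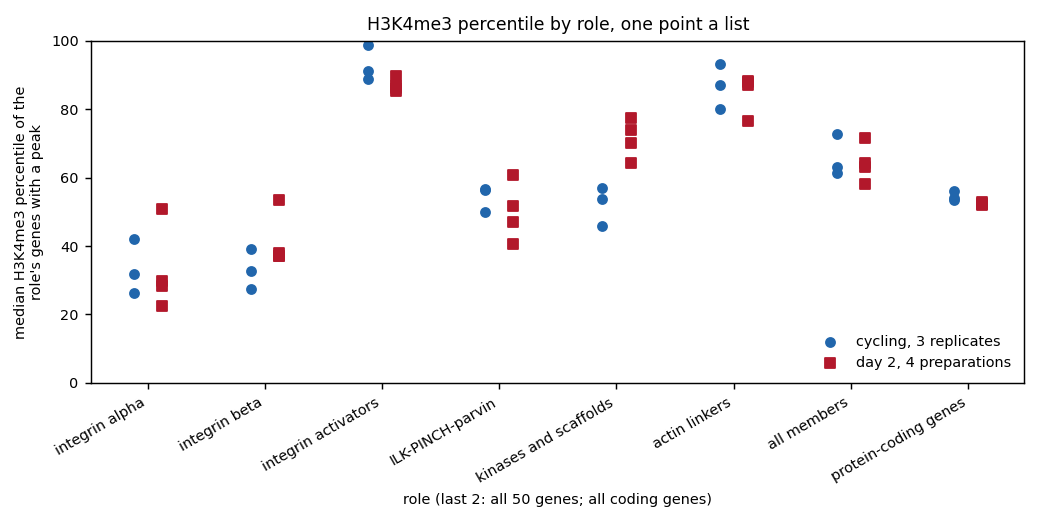
Each point is the median H3K4me3 percentile, over the genes with a peak, of a role in 1 list, for the 3 cycling replicates (blue circles) and the 4 day 2 preparations (red squares), with all 50 genes and all protein-coding genes on the right. Among genes with a peak, integrin alpha and beta genes lie below the coding median in the cycling lists (with genes without a peak at 0, the medians of the 20 integrins together and of coding genes are close), whereas the actin linkers lie above it in all 7 lists, as does the point of the integrin activators, which is the value of a talin gene.

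Within the integrins the levels spread widely. In replicates 1, 2 and 3, Itga7, the laminin receptor subunit of muscle, was at 91.7, 83.0 and 81.4, and Itga5 at 64.3, 93.8 and 86.9. Itgb1, the common beta subunit, was at 66.2, 84.4 and 83.7, and Itgav at 77.7, 81.2 and 60.0. These 4 overlapped, except that Itgav lay just below Itga7. Itga11 was far below at 3.59, 14.6 and 4.85, as was Itga2 at 6.14, 2.78 and 4.04. Vasp, an actin regulator, was the highest member in replicates 1 and 2 at 98.8 and 99.5, with 98.4 in replicate 3.

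Genes with a pooled PSME3 peak had the higher H3K4me3 percentile in each cycling replicate. Over genes with an H3K4me3 peak, their medians were 70.0, 72.7 and 76.3, and those of the genes without PSME3 were 49.0, 69.5 and 60.5. The difference was 13.3 ± 9.1 points (SD, n = 3), higher in 3 of 3 replicates. The same difference over all protein-coding genes with H3K4me3 was 20.2, 23.4 and 22.1 points. Both groups of members include genes of widely differing percentiles, and the replicate 2 difference was 3.26 points.

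At day 2, most adhesion genes had a listed H3K4me3 peak. The mark was listed at 42 and 44 of the 50 genes in the fresh native and crosslinked lists, against 29.9% and 32.4% of all genes, and at 44 and 45 in the frozen native and crosslinked lists, against 31.6% and 32.6%. All 50 are protein-coding. Of the 21900 protein-coding genes, 11937, 12584, 12452 and 12619 had a peak in these lists, in the same order. Itga2 and Itgb4, subunits of the collagen and hemidesmosome receptors, had a peak in all 3 cycling replicates and in no day 2 list. That is 2 of 45 such members, or 4.44%, against 2.72% of all genes with 3 cycling peaks. Both were low in cycling cells, with Itgb4 at 3.83, 12.3 and 4.58, and Itga8 had a peak in 2 cycling replicates and none at day 2. In the other direction, Itga4, the alpha 4 subunit, had a peak in 3 of 4 preparations and none in cycling cells, at a percentile of 8.53 or less. Itgb1bp2, which encodes the muscle protein melusin, had one in 2 of 4, at 4.63 or less. They are 2 of the 4 members with no cycling peak, against 1.81% of all such genes.

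To compare levels, a gene without a peak was set to 0, and a gene was counted where all 4 day 2 percentiles lay on one side of all 3 cycling values. Of the 48 members with any peak, 10 were lower (20.8% against 19.8% of all genes with a peak) and 2 were higher (4.17% against 3.52%), so the shares of the list were near the background. Among the 41 members with a peak in all 7 lists, 8 were lower (19.5% against 19.7%) and 2 higher (4.88% against 4.51%). When genes were ranked among all genes of the table, 8 were lower (16.7% against 10.3%) and 6 higher (12.5% against 9.18%), so the excess of lower calls depends on the denominator. With the frozen native preparation alone, which shares the handling of cycling cells, 17 were lower (35.4% against 36.8%) and 14 higher (29.2% against 12.7%). Without H3K4me3 replicate 2, 13 were lower (27.1% against 22.1%) and 4 higher (8.33% against 7.64%). Over genes with a peak in all 7 lists the median change was -4.22 percentile points, and over the 41 members it was -3.27. No test was made, since day 2 has 1 library per preparation.

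Nudc and Itga6 had the largest drops of these 12 genes by the difference of medians. The Nudc percentiles were 57.8, 66.5 and 47.1 in cycling replicates 1, 2 and 3, and 16.6 and 21.2 in the fresh native and crosslinked day 2 lists and 19.5 and 23.8 in the frozen ones. The medians differed by -37.5 points at Nudc and -35.8 at Itga6. Nudc stayed lower under every alternative tried, with changes from -41.8 to -11.1 points, but the order of the genes did not hold. By −log10 q Itga6 (-34.3) and Itga3 (-25.0) changed more than Nudc (-20.9), and by summed length Src did (-21.1 against -18.4). Ranked among all genes, Itga2 (-67.4) and Itgb4 (-67.5) had the largest changes. In that ranking a gene without a peak was set to 0, and any gene with a peak ranked above all genes without one. Loss of even a weak peak is therefore a large drop on that scale. By the main measure Itga2 and Itgb4 changed by -4.04 and -4.58 points.

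Itga6, a laminin receptor subunit, was at 67.3, 66.5 and 66.5 in cycling cells and at 38.6, 23.2, 35.7 and 25.8 at day 2. Itga3, which also binds laminin, was at 85.3, 73.3 and 87.7 and then at 63.0, 50.9, 65.5 and 57.2. Both were below all cycling values in each day 2 preparation, and both overlapped the cycling values when summed peak length replaced fold enrichment. Flna was at 47.1, 72.4 and 61.1 and then at 32.8, 33.9, 42.0 and 36.9, and its change turned to 0.0571 points upward by summed length.

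Itgb3 was at 39.1, 32.6 and 27.4 in cycling cells and at 18.2, 23.9, 23.0 and 22.4 at day 2, a change of -9.89 points that turned to 0.136 when genes were ranked among all genes. Src was at 22.2, 33.6 and 20.4 and then at 11.4, 16.1, 16.5 and 16.7. Vcl was at 96.5, 95.1 and 97.8 and then at 89.4, 87.8, 87.0 and 73.6, and Vasp at 98.8, 99.5 and 98.4 and then at 97.3, 92.2, 95.7 and 80.4. Their changes of -9.12 and -4.88 points turned to 4.18 and 5.60 by summed length. The change at Src was -5.92 points, and it moved to -10.7 without replicate 1, -11.6 without replicate 3, -21.1 by summed length and -0.803 when ranked among all genes, where the groups overlapped.

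Itgb8 and Bcar1 were higher at day 2. Itgb8, the beta subunit of a receptor that activates latent TGF-beta, was at 45.5, 36.2 and 27.8 in cycling cells and at 55.3, 50.2, 57.1 and 59.0 at day 2. It stayed above under every alternative tried. Bcar1, which encodes the scaffold p130Cas, was at 43.9, 41.2 and 34.4 and then at 81.8, 67.1, 56.2 and 60.3, a change of 22.6 points that turned to -0.768 by summed length. The strongest pooled H3K4me3 peak of Bcar1 also lies within 1 kb of 2 predicted genes, Gm39252 and Gm51589.

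**Figure D5:**
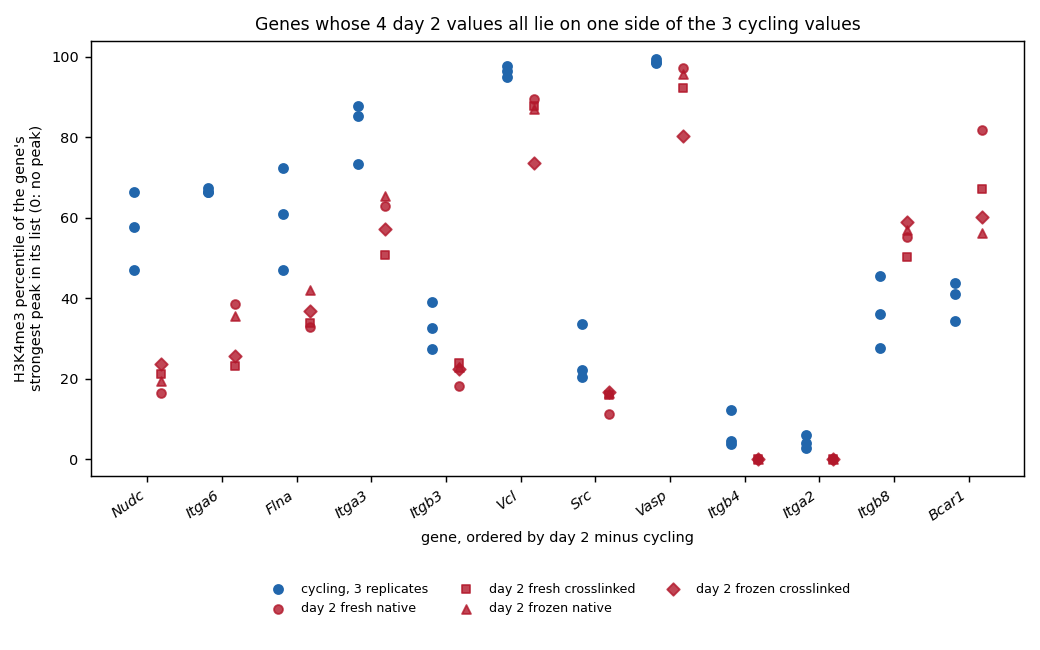
For the 12 genes whose day 2 and cycling values did not overlap, points give the H3K4me3 percentile of the strongest peak in the 3 cycling replicates (blue circles) and in each day 2 preparation (red symbols), with 0 for no listed peak. Itga6 shows the widest gap, from 66.5 or more in cycling cells to 38.6 or less at day 2, and Itgb8 and Bcar1 are the only genes with higher day 2 values.

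The rest of the list overlapped between stages. Myadm was at 70.1, 90.2 and 83.7 in cycling cells and at 80.5 to 86.7 at day 2, and Lims1 at 33.3, 55.4 and 56.7 and then at 40.5 to 56.8. Rac1 was at 62.5, 87.5 and 63.6 and then at 43.9 to 75.8. Among integrins, Itga5, Itga7 and Itgb1 stayed high, with day 2 ranges of 93.3 to 99.3, 89.0 to 95.3 and 60.0 to 92.2. Lims1 was thus the only member with a PSME3 peak at day 2, and its H3K4me3 percentile overlapped between cycling and day 2 cells.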

How the data were processed

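Peak lists of 14 CUT&RUN libraries and 2 pooled lists were used, and 7 with IgG were not analysed here. According to the submitters' processing notes, reads were trimmed by Trim Galore, mapped by Bowtie2 to mm10 and passed to MACS2, with versions, options and control not given in the sources used here. The deposited lists hold the authors' own fold enrichment (a ratio) of each peak, its p-value and its q-value as −log10, and every listed q-value was at most 0.0987. Depth is unknown.

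Members of the list, roles and further gene lists were chosen with earlier results of these data known. Peaks were assigned within 1 kb of a gene's span and overlapped by at least 1 bp, in Python 3.11.15 with pandas 2.3.3, numpy 2.4.6 and scipy 1.17.1. Intervals are Clopper-Pearson at 95%. Tests over replicates were exact and two-sided, and p-values measure only the spread between these libraries. Named genes were those with a pooled PSME3 peak in at least 2 replicate lists or any day 2 PSME3 peak, those named by the paper (Itgb3, Myadm, Nudc, Flna, Rac1), those without H3K4me3 and those whose day 2 and cycling values did not overlap. Others are given as examples. Summaries by role leave out 1 role of 3 members, which are not reported here. Overlap functions were tested on simulated data.

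Replicate numbers are shared by the PSME3 and H3K4me3 libraries. Over 19 autosomes, the log2 peak share of each autosome deviated from the replicate mean with a Pearson r of 0.538, 0.552 and 0.264 between libraries of the same number. This was taken as pairing, and the measure was picked with the data in view. Replicates 1 and 3 were not told apart by it (0.521 and 0.254). Alternatives were other q-values (0.05, 0.01), distances (0 and 3 kb, or 1 kb from the start), overlap rules (50% of the peak), replicates left out, the replicate block, and H3K4me3 ranked by −log10 q or by summed length. Ranking among all genes, the frozen native preparation alone and overlap with at least 1 replicate list were chosen after seeing the data.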

Additional observations from a re-analysis of the deposited data

How the results depend on the processing

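The count of 24 genes with a pooled PSME3 peak was 14 within 1 kb of the gene start and 8 when a peak had to recur in at least 2 replicate lists, and 17 when it had to overlap any replicate list. That overlap is also part of leaving a replicate out, which gave 8 to 17 genes: 17 without replicate 1 or 2, and 8 without replicate 3. The H3K4me3 overlap of 97.6% became 100% of 21 peaks at a q-value of at most 0.01, 100% of the 20 peaks in any replicate list, and 100% of 20, 20 and 8 peaks without replicate 1, 2 or 3. The 1 peak without H3K4me3 was in no replicate list. The 10 genes lower at day 2 became 17 with the frozen native preparation alone. The 2 higher genes became 4 by summed length, 6 when ranked among all genes, 14 with the frozen native preparation alone, and 3 to 4 with a replicate left out. Directions turned for Itgb3 (0.136 points, rank among all genes) and, by summed length, for Vcl (4.18), Bcar1 (-0.768), Vasp (5.60) and Flna (0.0571). By summed length 4 of the 10 lower genes and 1 of the 2 higher stayed called, and Itga2, Itgb4, Itgb8 and Nudc stayed called under all alternatives. The cause was not tested. The replicate block changed no call, with an exact p of 0.25 for the difference of 35.3 genes between antibodies. Numbers of pooled PSME3 peaks per gene changed at 12 of 24 genes at a q-value of at most 0.01, with none left at 7, Itgb3, Myadm and Nudc among them, and with 1 left of 5 at Tns1 and of 4 at Tln2. They changed at 20 genes, with none left at 16, for at least 2 replicate lists and without replicate 3, at 14, with none left at 10, near the start, and at 14, with none left at 7, without replicate 1 or 2. The other settings changed 1 to 3 genes. All other alternatives kept the counts of genes within 1.5 times and p-values on the same side. With 3 replicates no test could pass 0.05, so these p-values say nothing of stability.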

Other observations

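Of 49 further adhesome and motility genes found in the table, 21 had a pooled cycling PSME3 peak, against 21.9% of protein-coding genes, and 48 a pooled H3K4me3 peak, against 60.9%. In this list 7 genes had a peak that recurred in at least 2 replicate lists. The share was 2.12% of all genes and 6.5% of protein-coding genes with H3K4me3. The genes were Git1, Pak2, Rock2, Myh9, Myl12a, Pdlim7 and Ptpn12. Pdlim7, which encodes an actin-associated PDZ and LIM protein, had a pooled fold enrichment of 3.95, recurred in 3 replicate lists and was the only gene of this list with a PSME3 peak in the day 2 frozen native list.

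Integrins of leukocytes, which a myoblast does not use, had a pooled PSME3 peak at 0 of 7 genes and a pooled H3K4me3 peak at 2 of 7, where the shares of protein-coding genes were 21.9% and 60.9%. Matrix ligands had PSME3 at 3 of 15, the laminin chain genes Lama5, Lamb1 and Lamc1, with fold enrichments of 2.64, 2.81 and 2.98, and H3K4me3 at 14 of 15. The PSME3 count is near the 21.9% of protein-coding genes. Markers of other cell types had a pooled cycling H3K4me3 peak at 1 of 5 for blood, 2 of 4 for endothelium, 1 of 3 for liver, 2 of 4 for neurons and 1 of 3 for epithelium, against 35.9% of all genes and 60.9% of protein-coding genes. No test was made of any of these counts.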
